A study of Caenorhabditis elegans with 6 samples.

Results

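The genes described here were grouped as early zygotic lineage genes of the Caenorhabditis elegans embryo. The grouping does not mean that each acts in the first cell fate decisions. They were chosen as a list of 29 gene names, of which 28 were found among the 32238 genes of the deposited small RNA count tables. The name vet-4 was in neither table. These 28 are called the members below. The groups were embryos carrying dot-1.1(knu339); ced-3(n1286), called the double mutant, and embryos carrying ced-3(n1286) alone, called the single mutant, with 3 libraries each. The plots name them dot-1.1 ced-3 and ced-3. Both groups thus carried a mutation of ced-3, the caspase gene of programmed cell death, and each genotype was 1 strain. DOT-1.1 is the worm counterpart of DOT1L, the methyltransferase of lysine 79 of histone H3. What the knu339 allele alters is not given in the labels. The design sets small RNA levels with the dot-1.1 mutation against those without it.

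In the worm embryo, maternal proteins and signals from neighbouring cells set the fate of each early blastomere. SKN-1 and PAL-1 are transcription factors loaded into particular blastomeres, Wnt and Notch signals divide sister cells into different fates, and short-lived zygotic transcripts, many of them encoding T-box, homeobox and bHLH factors, then carry each lineage forward. Worms also make small RNAs that are antisense to messenger RNAs, while sense small RNAs of a gene can include fragments of its messenger RNA. The tables hold no read lengths or sequences, so the counts below do not separate these kinds, and they do not measure the messenger RNA itself.

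Each of the 28 genes had at least 3 counts in each table over the 6 libraries, but most had few. Antisense counts came to 1904 in all and sense counts to 1870. The low count filter left 7 of the 28 for a test of antisense and 8 for a test of sense counts, with 3 tested in both tables and 16 in neither. Members below the filter had between 3 and 57 antisense counts, or between 4 and 56 sense counts, summed over the 6 libraries. In each table a few genes carried about as many counts as all the others together: skn-1, sdz-31 and vet-6 held 49.1% of the antisense counts, and mom-2, sdz-12 and skn-1 held 50.4% of the sense counts.

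The libraries differed within a genotype in ways that touch every value below. Total counts ranged from 19529265 to 26409182 in the double mutant and from 19206363 to 22344506 in the single mutant in the sense table. In the antisense table they ranged from 4892780 to 6568937 in the double mutant and from 4891289 to 6151546 in the single mutant. Double mutant replicate 3 was rich in microRNA (89.5% of its sense counts) and held only 117 sense counts of the 28 genes. In the single mutant, replicate 2 was the microRNA-rich library (92.4%) and held only 108. The first replicate of each genotype held the most, 603 in the double mutant and 510 in the single mutant. The microRNA share was also high in replicate 3 of the single mutant, at 86.7%. It was 72.9% and 79.0% in replicates 1 and 2 of the double mutant and 77.8% in replicate 1 of the single mutant. Fits without both microRNA-rich libraries kept replicate 3 of the single mutant. As a check of the embryo label, the 8 microRNAs of the mir-35 family, which are typical of embryos, summed to 4834074, 5665510 and 8563569 sense counts in the double mutant and 4972863, 6467103 and 6694494 in the single mutant. The later-stage microRNAs let-7 and lin-4 together had 362, 475 and 970 counts in the double mutant and 307, 329 and 432 in the single mutant. Of these, lin-4 had 35, 84 and 208 counts in the double mutant and 19, 8 and 24 in the single mutant, without overlap; F59G1.10 lies on its other strand. Of the 6 yolk protein genes, which adults transcribe, all tested for sense counts, 4 had an unadjusted edgeR p under 0.05 and were higher in the double mutant, against 5.73% of all genes. These were vit-3, vit-4, vit-5 and vit-6, with log2 fold changes of 2.25, 4.13, 3.30 and 3.22, each larger than that of any tested member. Only these 4 of the 6 were higher in the double mutant, and vit-1 and vit-2 were not. The median over the 6 was 2.74. T27A10.8 and F59D8.3 lie on the other strand of vit-3 and vit-4. The 6 genes summed to 337, 304 and 284 sense counts in the double mutant and 813, 7 and 677 in the single mutant, so the raw sums do not follow these 4. The log2 fold change of lin-4 was 3.21. None of these markers passed after adjustment (edgeR adjusted p = 0.590 for lin-4 and each of the 4 yolk genes). Their part in the results below was not tested. At dot-1.1 itself sense counts were 23, 40 and 32 in the double mutant and 75, 66 and 55 in the single mutant, and small RNA counts summed over the gene do not check the labels.

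All 28 genes are protein-coding, and 6 of them share exon bases with a gene on the other strand in the Ensembl annotation of WBcel235. The longest overlap was 555 bases, between ceh-22 and the non-coding gene F29F11.19. The other 5 were with protein-coding genes and were short: 66 bases for pal-1 with metl-5, 42 for sdz-1 with B0303.7, 41 for skn-1 with csn-5, 29 for tbx-38 with srd-74 and 20 for hlh-27 with C17C3.11. In these stretches a read antisense to one gene is sense to its partner. None shared exons with a gene on its own strand. The authors' gene lengths equalled the Ensembl exon lengths for 15 of the 28 and differed by over 100 bases for 4 (tbx-9, tbx-11, hlh-26 and vet-6), so the counted regions of these 4 are not exactly known.

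Levels per length spread widely among the 28 genes. Normalised antisense counts per 1000000, divided by gene length in kilobases and averaged over the 6 libraries, ran from 0.0844 for hlh-27 to 8.95 ± 5.03 (SD, n = 6) for sdz-31, with a median of 0.467. The median of all 19896 protein-coding genes was 0.559, and 12 of the 28 lay above it. Some members ranked high: sdz-31 was above 97.0% of the protein-coding genes, pes-1 above 95.6%, sdz-1 above 92.7% and skn-1 above 91.6%. After sdz-31, pes-1 had 6.63 ± 4.29 (SD, n = 6) counts per 1000000 per kilobase. The values were 4.56 ± 1.63 for sdz-1 and 4.11 ± 1.52 for skn-1. These SDs overlap, span both genotypes and come from the same 6 libraries. Differences between these neighbours in the order were not tested. In the sense table the order was another one. There mom-2 was highest at 2.13 ± 2.31 (SD, n = 6), above 97.0% of protein-coding genes, followed by sdz-12 at 1.42 ± 1.70, above 95.3%, and then by skn-1 at 0.456 ± 0.0922. Of the 28 genes, 16 lay above the protein-coding median of 0.142 sense counts per 1000000 per kilobase.

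**Figure D1:**
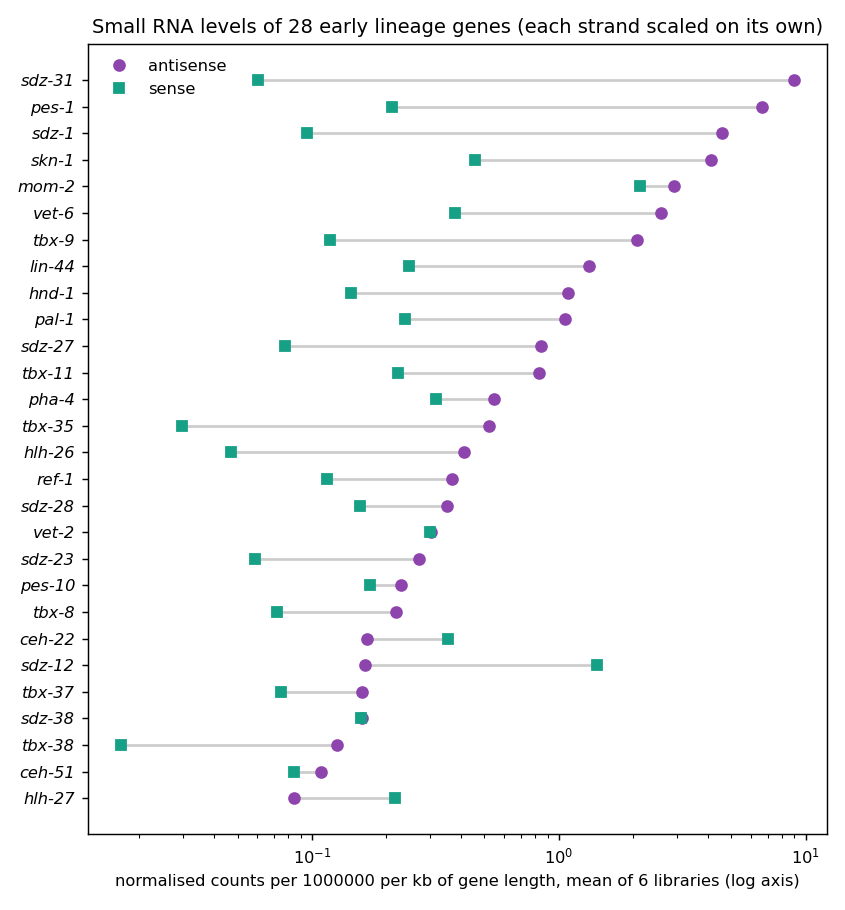
Normalised counts per 1000000 per kilobase of gene length (log axis) for 28 genes, as the mean of 6 libraries of both genotypes, with circles for antisense and squares for sense counts. Each table was scaled by its own counts, so the distance between a circle and a square is not a strand ratio. The genes sdz-31, pes-1, sdz-1 and skn-1 lead the antisense order, and mom-2 and sdz-12 lead the sense order.

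The share of a gene's own counts that was antisense needs no scaling between libraries. It separated the genes more than the genotypes. Antisense counts made up 279 of 284 counts at sdz-31 (98.2%), 118 of 131 at sdz-1 (90.1%), 215 of 243 at pes-1 (88.5%) and 86 of 106 at tbx-9 (81.1%). At the other end were sdz-12 with 7 of 276 (2.54%), ceh-22 with 14 of 130 (10.8%) and vet-2 with 26 of 141 (18.4%). The genes named for dependence on SKN-1 thus lay at both ends, with sdz-31 and sdz-1 almost wholly antisense and sdz-12 almost wholly sense. B0303.7, across from sdz-1, had 26 sense counts in the double mutant and 35 in the single mutant. Some of these may also have been counted as antisense at sdz-1. Of the 15 members with at least 50 counts over both strands, 8 had more antisense than sense counts (53.3%). Of 7640 protein-coding genes with as many counts and no exon on the other strand, 46.1% did, with a median antisense share of 47.0%, so the members' count is near that of other genes. The sets are not quite alike, since skn-1, pal-1, sdz-1 and ceh-22 among the 15 do have an exon on the other strand.

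Averaged over the 3 libraries of each genotype, the antisense share of skn-1 was 69.4% ± 11.4 in the double mutant and 66.7% ± 16.9 in the single mutant (SD, n = 3 each). At pes-1 it was 87.1% ± 7.56 in the double mutant and 86.7% ± 9.08 in the single mutant. At vet-6 it was 63.3% ± 8.65 in the double mutant and 60.6% ± 20.2 in the single mutant. These differences were smaller than the spread between libraries. At mom-2 the share was 26.7% ± 21.3 in the double mutant and 48.1% ± 27.9 in the single mutant, again with overlap between the genotypes.

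**Figure D2:**
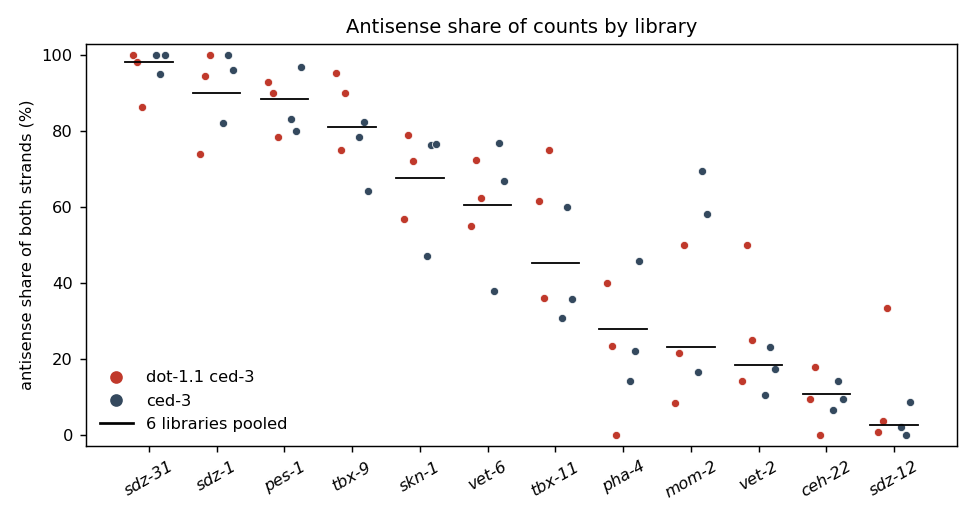
Antisense share of the counts on both strands, in percent, for the 12 genes tested in either table. Each point is 1 library, with the double mutant left and the single mutant right at each gene, and the line is the share over the 6 libraries pooled. The genes run from 98.2% at sdz-31 to 2.54% at sdz-12, and within each gene the libraries of the genotypes overlap.

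No member passed the test of genotype in either table. With edgeR's quasi-likelihood test and Benjamini-Hochberg adjustment over all genes, 0 of the 7 tested antisense members were higher and 0 lower, as were 0% of the 7297 genes tested in each direction. Of the 8 sense members 0 were higher and 0 lower, again as 0% of the 7680 genes tested in each direction. At an unadjusted edgeR p under 0.05, 0 of 7 members were higher in the antisense table, where 2.91% of all genes tested were, and 2 were lower, pes-1 and vet-6, where 2.33% of all genes were. For sense counts 1 of 8 was higher, mom-2, where 5.73% of all genes were, and 2 were lower, vet-2 and vet-6, where 2.4% of all genes were. DESeq2 likewise called 0 members in either table, and its unadjusted p was under 0.05 for pes-1 and vet-6 in the antisense and for mom-2 and vet-2 in the sense table. Log2 fold changes, double mutant over single mutant, were above 0 for 2 of the 7 antisense members, against 51.9% of all genes, and below 0 for 5, against 48.1%. For sense counts they were above 0 for 4 of the 8, against 50.9% of all genes, and below 0 for 4, against 49.1%. The median was -0.099 over the 7 antisense members against 0.026 over all genes tested. Over the 8 sense members it was 0.099 against 0.015 over all genes tested. With edgeR, members were tested only where they had enough counts, so its counts do not speak for the other members. Embryos were sequenced whole, so fewer cells of a lineage and less RNA per cell cannot be told apart.

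**Figure D3:**
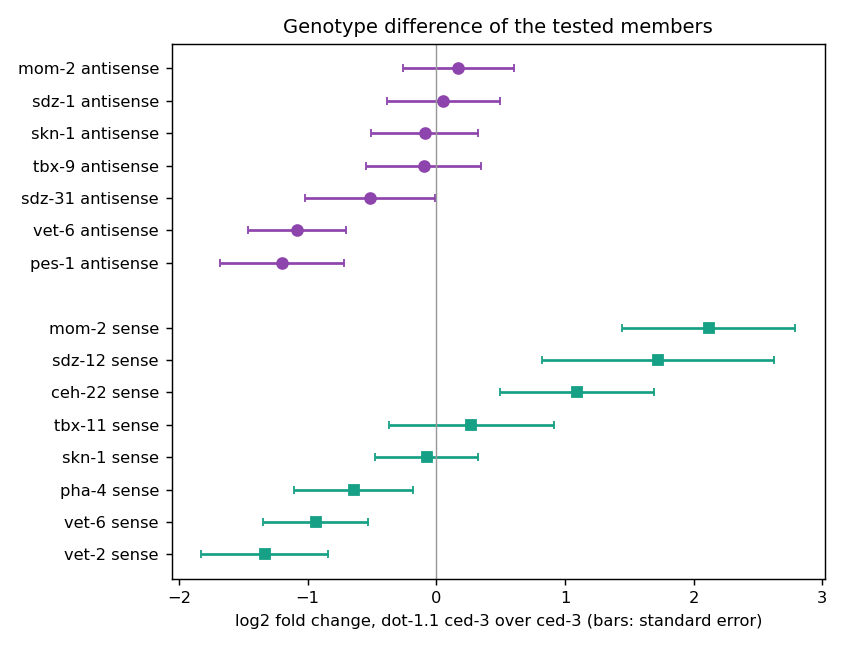
Log2 fold change, double mutant over single mutant, of the members tested in each table, with circles for antisense and squares for sense counts and bars for the standard error. The values run from -1.34 for vet-2 to 2.12 for mom-2, both in the sense table, and none passed the adjusted threshold.

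Among the maternal transcription factors, skn-1 (chromosome IV, 5651039 to 5660384, minus strand), which specifies the blastomere that gives rise to gut and much of the mesoderm, had the most antisense counts of all members. Its normalised antisense counts per 1000000 were 8.90, 16.9 and 9.56 in the double mutant and 8.98, 9.79 and 19.0 in the single mutant. In each genotype 1 library lay well above the other two, and the genotypes overlapped. The log2 fold change was -0.091 ± 0.42 (SE) with an edgeR adjusted p of 0.978. Its normalised sense counts were 1.56, 1.33 and 1.07 in the double mutant and 1.77, 1.08 and 1.29 in the single mutant, a log2 fold change of -0.075 ± 0.40 (edgeR adjusted p = 0.973). Relative to their mean, these sense counts varied least over the 6 libraries among the tested members. The other one, pal-1, the Caudal homologue that patterns posterior blastomeres, was below the filter, with antisense counts of 10, 13 and 3 in the double mutant and 8, 10 and 10 in the single mutant. Its sense counts were 9, 8 and 3 in the double mutant and 24, 3 and 9 in the single mutant.

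Of the 7 transcripts named for their dependence on SKN-1, 3 had enough counts for a test. Antisense counts of sdz-31 (V, 9880167 to 9881184) were 39, 58 and 19 in the double mutant and 53, 19 and 91 in the single mutant. Normalised, they averaged 6.75 ± 2.004 per 1000000 in the double mutant and 9.71 ± 6.56 in the single mutant (SD, n = 3 each), with overlap between the genotypes. This gave a log2 fold change of -0.52 ± 0.51 (edgeR adjusted p = 0.895), and it was 0.12 without replicate 3 of the single mutant. At sdz-1 (III, 8699480 to 8700339) antisense counts were 17, 17 and 24 in the double mutant and 23, 12 and 25 in the single mutant, with a log2 fold change of 0.055 ± 0.44 (edgeR adjusted p = 0.984).

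At sdz-12 (II, 3730152 to 3731823) nearly all counts were sense, with 145, 51 and 2 in the double mutant and 45, 5 and 21 in the single mutant. The double mutant thus held both the highest and the lowest library, and the lowest was the microRNA-rich one. Normalised sense counts averaged 2.78 ± 2.94 per 1000000 in the double mutant and 0.822 ± 0.412 in the single mutant (SD, n = 3 each), a log2 fold change of 1.72 ± 0.90 that did not pass (edgeR adjusted p = 0.599). Without replicate 1 of the double mutant it was 0.52, and without replicate 3 of the double mutant 2.24. The remaining sdz members were near the detection limit. Summed over the double mutant and then over the single mutant, antisense counts were 10 and 8 at sdz-27, 10 and 4 at sdz-28, 3 and 4 at sdz-23 and 1 and 3 at sdz-38. Sense counts were 0 and 5 at sdz-27, 8 and 21 at sdz-28, 4 and 3 at sdz-23 and 3 and 8 at sdz-38. Zero of 65597716 sense counts allows up to 0.0457 per 1000000 at sdz-27 in the double mutant, a limit that covers counting error only.

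The T-box factors, a family of DNA-binding proteins, had few small RNAs of either strand apart from tbx-9 and tbx-11. At tbx-9 (III, 10340006 to 10341858), which acts redundantly with tbx-8 in shaping the body, antisense counts were 20, 12 and 9 in the double mutant and 22, 14 and 9 in the single mutant. The values of the genotypes nearly coincided, and the log2 fold change was -0.099 ± 0.44 (edgeR adjusted p = 0.978). Its neighbour tbx-8 lies 5490 bases away on the opposite strand and had 4, 2 and 1 antisense counts in the double mutant and 0, 0 and 1 in the single mutant. Thus tbx-9 held 86 antisense counts and tbx-8 held 8. The authors' gene lengths were 1252 bases for tbx-9 and 1096 for tbx-8, and the Ensembl exon lengths were 945 and 1194. Both are T-box genes, and reads that fit both may have been counted at either, so each is uncertain alone. Sense counts of tbx-11 (III, 6045615 to 6046981) were 10, 16 and 2 in the double mutant and 18, 2 and 9 in the single mutant, with a log2 fold change of 0.27 ± 0.64 (edgeR adjusted p = 0.926). Its antisense counts, below the filter, were 16, 9 and 6 in the double mutant and 8, 3 and 5 in the single mutant.

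The factors of the mesodermal MS blastomere were scarcely covered. At tbx-35, which specifies MS, antisense counts were 4, 4 and 5 in the double mutant and 2, 1 and 2 in the single mutant, and sense counts summed to 2 in the double mutant and 3 in the single mutant. At ceh-51, the homeobox gene downstream of tbx-35, sums were 2 antisense and 4 sense counts in the double mutant and 1 antisense and 7 sense counts in the single mutant. The redundant pair tbx-37 and tbx-38, needed in descendants of the anterior AB blastomere, had 6 and 2 antisense counts in the double mutant against 0 and 2 in the single mutant. Their sense counts were 3 and 0 in the double mutant against 8 and 4 in the single mutant. A count of 0 at tbx-37 allows up to 0.184 antisense counts per 1000000 in the single mutant, and that at tbx-38 up to 0.0457 sense counts in the double mutant. The pair are related genes, and reads that fit both may have been counted at either, so each is uncertain alone.

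Among the 21 members below the antisense filter, normalised counts of tbx-35, tbx-8 and tbx-11 did not overlap between genotypes and were higher in the double mutant. Of 15280 genes below the filter with the same range of counts, 5.33% did so. None of the 21 lay wholly lower, where 3.5% of such genes did. Among the 20 members below the sense filter, 1 lay wholly higher, hlh-27, against 7.29% of 14193 such genes, and 1 wholly lower, sdz-28, against 3.95%. Before normalization, counts overlapped at tbx-8, tbx-11 and sdz-28, but not at tbx-35 and hlh-27. At these counts a single read moves a library's value, and the main edgeR test left these members out. The fits without the low count filter, by edgeR and by DESeq2, covered all 28 and called 0 members. In that edgeR fit, tbx-37 (antisense) and sdz-27 (sense) had an unadjusted p under 0.05. So did 1126 higher and 533 lower of 27271 antisense genes, and 1213 higher and 862 lower of 27916 sense genes. With DESeq2 no member below the filter did.

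The targets of Notch signalling in the early embryo, members of the REF-1 family of bHLH repressors, had few counts. At hlh-27 (II, 5539075 to 5540213) sense counts were 6, 9 and 6 in the double mutant and 3, 1 and 3 in the single mutant. Its antisense counts were 0 in each library of the double mutant and 1, 0 and 2 in the single mutant. Zero of 16676185 antisense counts allows up to 0.18 per 1000000. The neighbouring hlh-26, 5332 bases away, had 8 and 6 antisense and 4 and 2 sense counts in the double and the single mutant. At ref-1 antisense counts were 2, 6 and 2 in the double mutant and 1, 3 and 3 in the single mutant, and sense counts were 2, 0 and 3 against 8, 0 and 11. The genes hlh-26 and hlh-27 lie close together and belong to 1 family, and reads that fit more than 1 of the family may have been counted at either, so each is uncertain alone.

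Among the earliest zygotic transcripts, vet-6, vet-2 and pes-1 had an unadjusted p under 0.05 in at least 1 table, and none passed after adjustment. At vet-6 (I, 13269984 to 13272781), one of the very early transcripts found at the onset of zygotic transcription, antisense counts were 27, 34 and 20 in the double mutant and 38, 63 and 65 in the single mutant. Normalised antisense counts per 1000000 were 4.80, 5.07 and 4.90 in the double mutant and 5.78, 13.7 and 12.1 in the single mutant. The 3 double mutant libraries were nearly equal and lay below all 3 of the single mutant, of which replicate 1 was close to them. The log2 fold change was -1.09 ± 0.38 (edgeR unadjusted p = 0.0197, adjusted p = 0.846). Its unadjusted p was above 0.05 when replicate 2 of the double mutant, or replicate 2 or 3 of the single mutant, was left out.

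Sense counts of vet-6 were 22, 13 and 12 in the double mutant and 62, 19 and 32 in the single mutant, which overlap. After normalization they were 0.902, 0.575 and 0.853 per 1000000 in the double mutant and 1.66, 1.47 and 1.33 in the single mutant, which do not overlap. Its sense log2 fold change was -0.94 ± 0.41 (edgeR unadjusted p = 0.0436, adjusted p = 0.590), and its unadjusted p was above 0.05 when any 1 library other than replicate 1 of the double mutant was left out. Of the 3 members tested in both tables, skn-1, vet-6 and mom-2, only vet-6 had an unadjusted p under 0.05 in both, with lower values in the double mutant each time. Both tables come from the same 6 libraries and are not independent.

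At vet-2 (I, 10846772 to 10850103), another very early transcript, sense counts were 12, 8 and 6 in the double mutant and 60, 10 and 19 in the single mutant. Normalised, they were 0.492, 0.354 and 0.427 per 1000000 in the double mutant and 1.61, 0.772 and 0.792 in the single mutant. The double mutant libraries lay below those of the single mutant, whose replicate 1 stood apart at the top. This was a log2 fold change of -1.34 ± 0.49 (edgeR unadjusted p = 0.0219, adjusted p = 0.590). Its unadjusted p was above 0.05 when replicate 2 of the double mutant or replicate 1 of the single mutant was left out. Antisense counts of vet-2 were 2, 8 and 2 in the double mutant and 7, 3 and 4 in the single mutant. Normalised sense counts without overlap, lower in the double mutant, were found for 2 of the 8 tested members, vet-2 and vet-6, and for 5.79% of all sense genes tested. For antisense counts it was 1 of 7, vet-6, against 4.96% of all genes tested. No tested member lay wholly higher in either table, against 6.97% of sense and 5.28% of antisense genes.

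At pes-1 (IV, 5002748 to 5005486), a forkhead factor gene expressed in the early embryo, normalised antisense counts per 1000000 were 4.63, 4.03 and 2.70 in the double mutant and 10.5, 3.48 and 12.3 in the single mutant. Replicates 1 and 3 of the single mutant lay above all of the double mutant, and the microRNA-rich one lay within its range. The log2 fold change was -1.20 ± 0.48 (edgeR unadjusted p = 0.0353, adjusted p = 0.846). It was -1.58 without replicate 2 of the single mutant and -0.92 without replicate 3 of the single mutant. Its unadjusted p was above 0.05 in 4 of the 6 fits that left out 1 library, and under it without replicate 1 of the double mutant and without replicate 2 of the single mutant. Sense counts of pes-1 were 2, 3 and 3 in the double mutant and 14, 4 and 2 in the single mutant. At pes-10, a transcript long used to mark the start of zygotic transcription, counts summed to 7 antisense and 18 sense in the double mutant and 5 antisense and 14 sense in the single mutant.

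**Figure D4:**
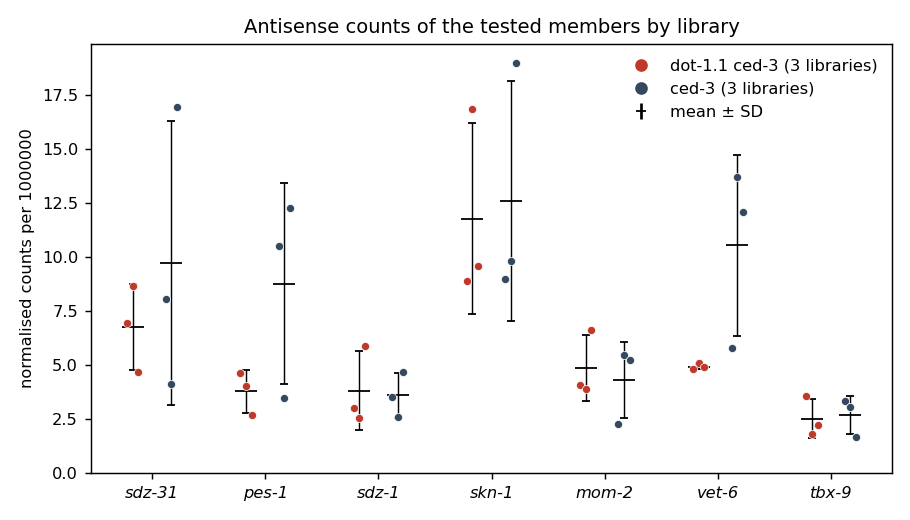
Normalised antisense counts per 1000000 of the 7 tested genes, with 1 point per library, the double mutant left and the single mutant right at each gene, and the mean ± SD over 3 libraries. At vet-6 the double mutant libraries lie between 4.80 and 5.07, below the single mutant libraries at 5.78 to 13.7, while at skn-1, sdz-1, mom-2 and tbx-9 the genotypes overlap.

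Of the Wnt ligands, mom-2 (V, 8355988 to 8358185), the signal by which the P2 blastomere polarises its neighbour EMS, had the most sense counts of all members. They were 252, 94 and 27 in the double mutant and 76, 11 and 20 in the single mutant. Normalised sense counts per 1000000 were 10.3, 4.16 and 1.92 in the double mutant and 2.03, 0.849 and 0.834 in the single mutant. The double mutant's replicate 1 stood far above the rest, and its replicate 3 lay just under the highest library of the single mutant. The log2 fold change was 2.12 ± 0.67 (edgeR unadjusted p = 0.0105, adjusted p = 0.590). Its unadjusted p was above 0.05 when replicate 1 of the double mutant or replicate 3 of the single mutant was left out. Without replicate 1 of the double mutant the log2 fold change was 1.23 (edgeR adjusted p = 0.617), and without both microRNA-rich libraries 2.29 (edgeR adjusted p = 0.0580). The annotation lists no exon on the other strand of mom-2.

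Antisense counts of mom-2 were 23, 26 and 27 in the double mutant and 15, 25 and 28 in the single mutant. Normalised, they were 4.09, 3.88 and 6.62 per 1000000 in the double mutant and 2.28, 5.44 and 5.21 in the single mutant, with overlap between the genotypes. Their log2 fold change was 0.17 ± 0.43 (edgeR adjusted p = 0.961). Whether sense and antisense counts of mom-2 changed differently was not tested. The other Wnt ligand, lin-44 (I, 4126056 to 4129310), which orients divisions in the tail, was below the filter, with 9, 9 and 12 antisense counts in the double mutant and 8, 9 and 10 in the single mutant. Its sense counts were 10, 3 and 7 in the double mutant and 22, 0 and 10 in the single mutant.

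Of the organ and tissue factors, pha-4, the FoxA factor that gives the pharynx its identity, had normalised sense counts per 1000000 of 0.615, 0.575 and 0.427 in the double mutant and 1.12, 0.541 and 0.834 in the single mutant. The genotypes overlapped through replicate 2 of the single mutant, and the log2 fold change was -0.64 ± 0.46 (edgeR adjusted p = 0.681). Sense counts of ceh-22 (V, 10671918 to 10675769), a homeobox gene of pharyngeal muscle, were 48, 23 and 6 in the double mutant and 14, 6 and 19 in the single mutant. As at mom-2 and sdz-12, replicate 1 of the double mutant was highest and its replicate 3 lowest among the double mutant libraries. Its log2 fold change was 1.09 ± 0.60 (edgeR adjusted p = 0.611) and 0.44 without replicate 1 of the double mutant. F29F11.19, across from ceh-22, had 10 antisense counts in all, so at most that many of the 116 sense counts at ceh-22 were counted there too. At hnd-1 (X, 11684561 to 11685788), a Hand bHLH factor of mesoderm and the somatic gonad, antisense counts were 3, 3 and 6 in the double mutant and 9, 7 and 6 in the single mutant, and sense counts were 3, 3 and 3 against 4, 2 and 3.

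**Figure D5:**
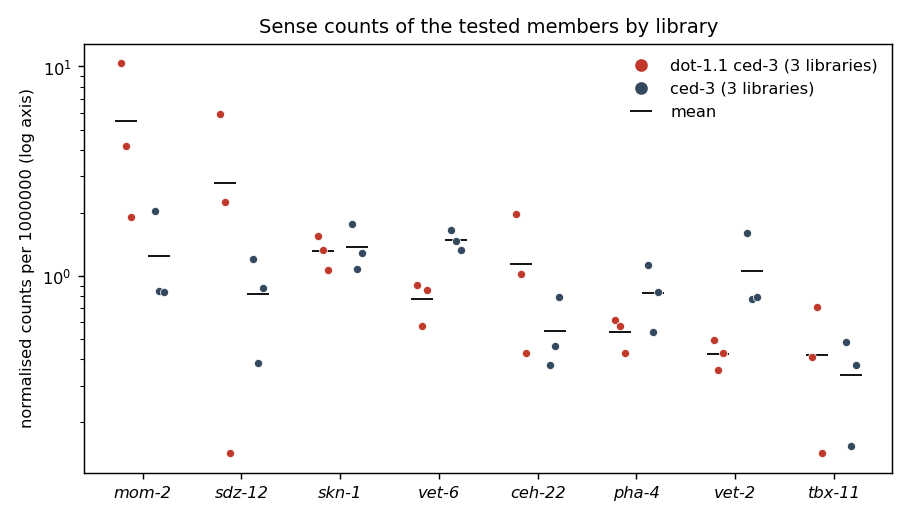
Normalised sense counts per 1000000 (log axis) of the 8 tested genes, with 1 point per library, the double mutant left and the single mutant right at each gene, and a bar for the mean. At mom-2, sdz-12 and ceh-22 the double mutant libraries spread widely, from 10.3 to 1.92 at mom-2, while at vet-6 and vet-2 they lie below those of the single mutant.

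Summed over the 28 genes, normalised antisense counts per 1000000 were 51.8, 54.4 and 49.0 in the double mutant and 53.1, 52.7 and 85.1 in the single mutant. Replicate 3 of the single mutant stood apart at the top, and the other 5 libraries lay close together. Sense sums were 24.7, 13.1 and 8.32 in the double mutant and 13.6, 8.34 and 9.80 in the single mutant, with replicate 1 of the double mutant highest.

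Other genes of the same pathways gave 0 calls after adjustment in each of the 9 lists examined, in either direction and either table. The same held for all 7297 antisense and 7680 sense genes tested, so these lists do not differ from other genes in this. Of 28 other sdz genes, 4 were tested in each table, and 0 had an unadjusted edgeR p under 0.05. Of 16 other T-box genes, 0 could be tested for antisense and 3 for sense counts. Of 14 maternal regulators of the early blastomeres, such as pie-1, mex-3 and pos-1, 11 antisense and 12 sense were tested. Their median log2 fold changes were -0.13 and -0.40, and 5 of 11 and 2 of 12 lay above 0. Over all antisense and all sense genes tested, the medians were 0.026 and 0.015, and 51.9% and 50.9% lay above 0. Of the Notch ligands, receptors and effector, 5 of 6 were tested for antisense and 4 for sense counts, with medians of 0.16 and 0.028. Of the 6 endomesoderm regulators med-1, med-2, end-1, end-3, elt-2 and elt-7, 1 was tested for antisense and 0 for sense counts. Of 16 tissue identity factors, 2 and 6 were tested, and of 3 other REF-1 family genes, 0 and 1. The very early transcript vet-1 was below the filter in both tables.

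The list of 17 other Wnt pathway genes, 11 tested in each table, held 2 genes with an unadjusted edgeR p under 0.05 that were higher in the antisense table, against 2.91% of all genes, and 2 that were lower in the sense table, against 2.4%. The other 8 lists held 0 such genes, and several of them had few genes tested. Antisense counts of lin-17, a Frizzled receptor, were 15, 18 and 16 in the double mutant and 5, 3 and 6 in the single mutant (log2 fold change 1.83 ± 0.46, edgeR adjusted p = 0.846). Those of cam-1, a Ror receptor, were 33, 51 and 7 in the double mutant and 8, 5 and 12 in the single mutant (1.76 ± 0.58, edgeR adjusted p = 0.846). At lin-17 the genotypes did not overlap, and at cam-1 they did. Sense counts of cfz-2, another Frizzled receptor, were 11, 3 and 3 in the double mutant and 45, 12 and 17 in the single mutant (-1.79 ± 0.55, edgeR adjusted p = 0.590). Those of pop-1, the TCF factor at the end of the pathway, were 16, 23 and 8 in the double mutant and 101, 14 and 76 in the single mutant (-1.63 ± 0.51, edgeR adjusted p = 0.590). Over the 11 tested genes of this list the median log2 fold change was -0.18 for antisense and -0.27 for sense counts.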

How the data were processed

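Small RNA was sequenced from embryos of both genotypes. Per the labels' protocols, embryos were isolated with hypochlorite from synchronised adults grown at 20 °C, libraries held inserts of 18 to 40 bases, and sequencing gave single reads 50 bases long. The authors deposited raw read counts per gene for each strand in tables of 32238 genes, whose build is WBcel235 per the submitters' processing notes. The aligner, the counter and the handling of multi-mapping reads were not given in the sources used here. Sense reads were taken to be those of the table without a strand name, since 99.98% of the counts at 216 microRNA genes, all without an opposite-strand exon, lay there. Columns were assigned by their genotype and number. Titles carry other short numbers for replicates 2 and 3, so which of these is which is uncertain.

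Each table was tested over all its genes with edgeR 4.0.16 in R 4.3.3 (default low count filter, TMM, robust quasi-likelihood F test, Benjamini-Hochberg adjusted p under 0.05) and with DESeq2 1.42.0 as an alternative, both tables over 6 libraries. Standard errors are the log2 fold change divided by the square root of F. Normalised counts are per 1000000 of the TMM-adjusted library size of the same table. Genes were matched by name to RefSeq (31418) and Ensembl release 115 (31359), both of WBcel235. The members and lists were chosen with earlier results of these data known. Every member found is named, with full values for those that passed the filter, as is each gene of the other lists with an unadjusted p under 0.05. F29F11.19, B0303.7 and dot-1.1 are named beside results they touch. The titles call the libraries biological replicates; how their cultures were separated is not described.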

Additional observations from a re-analysis of the deposited data

How the results depend on the processing

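Of 15 log2 fold changes of members, 8 kept their direction under all 13 alternatives, and no member passed the adjusted threshold under any of them; the smallest adjusted p was 0.0580, for sense counts of mom-2 without both microRNA-rich libraries. The 7 that turned had values between -0.52 and 0.27, and the cause was not tested. In the antisense table sdz-1 was -0.13 with library totals, -0.075 with microRNA scaling and -0.55 without both microRNA-rich libraries. There skn-1 was 0.084 with microRNA scaling and tbx-9 was 0.035 without both microRNA-rich libraries. In the sense table tbx-11 was -0.062 with library totals. With 1 library left out, antisense values ran from -0.45 to 0.33 for skn-1, -0.44 to 0.11 for tbx-9, -0.36 to 0.29 for sdz-1, -0.88 to 0.12 for sdz-31 and -0.16 to 0.37 for mom-2, and sense values from -0.29 to 0.045 for skn-1 and -0.28 to 0.61 for tbx-11. Library totals and microRNA scaling moved the median of all sense genes by -0.28 and -0.19, and no member then had an unadjusted p under 0.05.

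Over all genes, the antisense table gave 89 higher and 25 lower calls with no low count filter and 6 lower with DESeq2. The sense table gave 102 higher and 15 lower with no low count filter, 1 higher with DESeq2, 148 higher and 13 lower without both microRNA-rich libraries, and from 0 to 6 higher when 1 library was left out, the 6 without replicate 3 of the double mutant. With the replicate number as a block, edgeR called 0 genes in either table, and unadjusted p under 0.05 was met by 385 higher and 206 lower antisense and 463 higher and 216 lower sense genes. For antisense counts, deviations of same-numbered libraries correlated at 0.64 for replicate 1, but at -0.022 and -0.034 for replicates 2 and 3. Sense counts gave 0.65 for replicate 1, and 0.014 and -0.14 for replicates 2 and 3. Across numbers, the microRNA-rich libraries (replicate 3 of the double and 2 of the single mutant) correlated at 0.55 for antisense and 0.54 for sense counts. Since which library is replicate 2 or 3 is uncertain, these values cannot decide whether the samples were paired. Low counts limit these results: 16 of the 28 genes passed the low count filter in neither table.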
